A study of Danio rerio with 6 samples.

Results

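Fibroblast growth factors (Fgfs) are signalling proteins that bind Fgf receptors together with heparan sulfate, and one of the pathways that the receptors switch on is the Ras, Raf, Mek and Erk kinase cascade. Most ligands are secreted, and a ligand may be made by the cells that respond to it or by their neighbours. In zebrafish, Fgf signalling is known for its part in the outgrowth of fins and in their regeneration. The 10 ligand genes described here, fgf1a, fgf2, fgf3, fgf7, fgf8a, fgf10a, fgf16, fgf18a, fgf20a and fgf24, were taken by name from the 34289 Ensembl genes of the count tables. All 10 were found in the tables by symbol. Another 20 genes with a symbol of fgf and a number were found and are counted here as Fgf ligand genes by name alone. Whether each of them encodes a secreted ligand of the receptors was not checked. Among them are fgf11a, fgf11b, fgf12a, fgf13a, fgf13b and fgf14, of which only fgf11b had reads (23, in Geminin-negative replicate 2).

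Messenger RNA of osteoblasts, the bone-forming cells of the scale, was sequenced from zebrafish that carried the transgenes osx:H2A-mCherry and osx:Venus-hGeminin. The osx (osterix, sp7) sequence drives both in osteoblasts, and the degradation signal of geminin lets Venus build up in S, G2 and M phase of the cell cycle. Each flank lost about 50 scales, in 3 rows, and the regrowing scales were taken on day 4. The labels give a digestion of 1 h for every sample, and its effect on transcript levels was not tested. Each sample pooled 3 to 5 fish, so a library is a pool of animals whose age is not given in the labels. Live single H2A-mCherry+ cells were sorted into a Venus-hGeminin- and a Venus-hGeminin+ gate, called here Geminin-negative and Geminin-positive, with 3 libraries each. The labels name the Geminin-positive libraries as high in Erk activity, whereas the series' design statement has Venus-hGeminin falling as Erk activity rises, so no direction of Erk activity is read from the gates.

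Total counts ran from 15854710 to 34472612 per library, and from 11977 to 17875 genes had a read. As a check of the sort, gmnn, the endogenous geminin gene, lay between 365.4 and 425.8 CPM (the reads of a gene per 1e6 scaled reads) in the Geminin-negative libraries. The Geminin-positive libraries had 1516 to 1633 CPM of it (log2 fold change 1.97, edgeR adjusted p = 0.0106). The osteoblast transcription factor gene sp7 had 138, 126 and 72.4 CPM against 272, 179 and 150 CPM, without overlap but with an adjusted p of 0.464 by edgeR. The share of all genes whose groups do not overlap was not counted, so a lack of overlap is given here and below as a description only. All 12 osteoblast markers had reads, and their summed share of the counts was 10.9% to 19.5% in Geminin-negative against 21.2% to 30.0% in Geminin-positive libraries. Of the 11 tested, 6 had a negative log2 fold change (median -0.22). The sum rose with the matrix genes col1a1a (mean 25140 against 110200 CPM), col1a2 (28140 against 124600) and sparc (8485 against 30160). The largest marker in the Geminin-negative libraries, col10a1a, went the other way with overlap (mean 56410 against 36080 CPM). In the same order, the 14 leukocyte markers took 0.256% to 0.414% and 0.00675% to 0.0163%, and the 7 osteoclast markers 0.122% to 0.125% and 0.0102% to 0.0222%. The 12 keratinocyte markers took 0.340% to 0.737% and 0.163% to 0.278%, and the 10 dermal fibroblast markers 0.225% to 0.227% and 0.294% to 0.523%. The fibroblast sum rested on lum (mean 1166 against 4939 CPM), while 7 of the 9 tested fibroblast markers had a negative log2 fold change (median -1.09). Pigment cell, nerve and endothelium markers each stayed at or below 0.00115% in every library. These libraries are sums over many cells, so fewer cells that hold a transcript and less transcript per cell cannot be told apart.

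Reads of the Fgf ligands were few and scattered. Of the 10 members 7 had a read in any library, and 5 of them, fgf3, fgf20a, fgf1a, fgf8a and fgf7, had more than 1 read. The genes fgf10a, fgf16 and fgf18a had 0 reads in all 6 libraries, and fgf2 and fgf24 had 1 read each. No member had a read in every library. With a gene called detected at 1 CPM or more in at least 2 of the 3 libraries of a group, 0 members were detected among Geminin-negative libraries. The Geminin-positive libraries had 2 detected members, fgf8a and fgf20a. By the same rule 33.9% and 32.5% of all genes were detected. With CPM on total counts alone fgf20a was the 1 member left, at 1 CPM in all 3 libraries there was 0, and at 10 reads in at least 2 libraries fgf3 was counted in both groups.

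**Figure D1:**
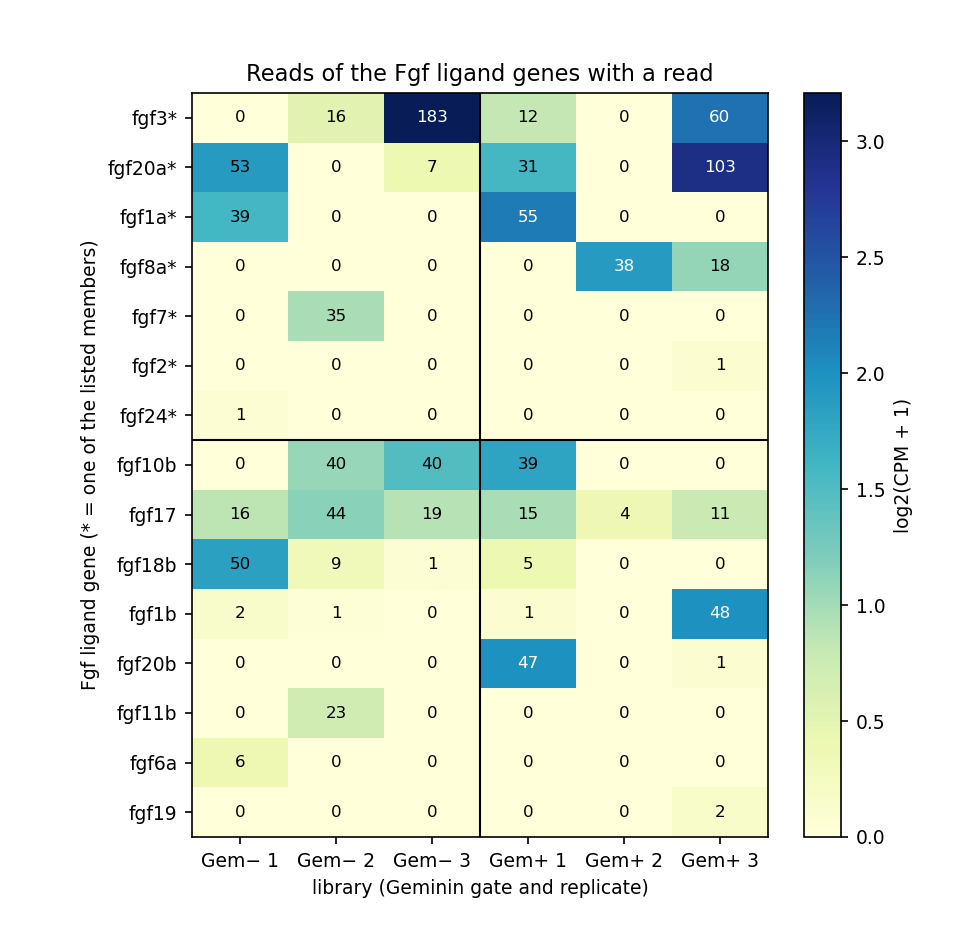
Reads of the 15 Fgf ligand genes with at least 1 read (rows, listed members marked with an asterisk) in the 6 libraries (columns, Gem− for Geminin-negative and Gem+ for Geminin-positive). The number in a cell is the read count and its colour is log2(CPM + 1); fgf17 is the 1 row without a 0, and the highest cell is the 183 reads of fgf3 in Geminin-negative replicate 3.

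The Fgf9, Fgf16 and Fgf20 branch was represented by fgf20a. In zebrafish, fgf20a is known as the gene that the fin needs to start a regeneration blastema. It lies on chromosome 1 from 15700140 to 15701877 of danRer10, on the minus strand (ENSDARG00000007356). It had 53, 0 and 7 reads in Geminin-negative replicates 1, 2 and 3, which correspond to 2.71, 0 and 0.315 CPM. In Geminin-positive replicates 1, 2 and 3 it had 31, 0 and 103 reads, or 1.97, 0 and 6.46 CPM. Replicate 2 of each group had no read, the highest and the second highest library were in different groups, and the groups overlapped. The Geminin-negative mean was 1.01 ± 1.48 CPM and the Geminin-positive mean 2.81 ± 3.31 CPM (SD, n = 3 each). The fitted log2 fold change, positive where the Geminin-positive libraries are higher, was 1.48 (SE 2.64, 95% interval -4.55 to 7.50) with an adjusted p of 0.9999 by the quasi-likelihood test of edgeR, so fgf20a was not called. Without Geminin-positive replicate 3 it was -0.02, and without Geminin-negative replicate 1 it was 4.15.

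The copy fgf20b, on chromosome 14, had 47 reads in Geminin-positive replicate 1, 1 read in Geminin-positive replicate 3 and none elsewhere. The library richest in fgf20b was thus not the one richest in fgf20a. The related fgf16, which in zebrafish is expressed in the epithelium of the growing pectoral fin, had no read. The counts in all 6 libraries together leave room for a level of up to 0.0242 CPM, the level of 3 reads. The same limit holds for fgf10a and fgf18a, and it covers counting error only.

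The most abundant member in CPM was fgf3, a secreted ligand with known parts in zebrafish ear, hindbrain and pharyngeal cartilage development (ENSDARG00000101540, chromosome 7, 54335988 to 54339456, plus strand). It had 0, 16 and 183 reads in Geminin-negative replicates 1, 2 and 3 (0, 0.439 and 8.23 CPM). In Geminin-positive replicates 1, 2 and 3 it had 12, 0 and 60 reads (0.762, 0 and 3.76 CPM). Replicate 3 was the highest of each group, and each group held a library with no read. Geminin-negative replicate 3 alone held 67.5% of all fgf3 reads. The means were 2.89 ± 4.63 and 1.51 ± 1.99 CPM (SD, n = 3 each), and the log2 fold change was -0.94 (SE 2.62, 95% interval -6.92 to 5.05, edgeR adjusted p = 0.9999). It turned to 2.73 without Geminin-negative replicate 3 and was -2.90 without Geminin-positive replicate 3.

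The gene fgf3 stands in a row of ligand genes on chromosome 7. Downstream of it on the same strand, fgf4 (54347408 to 54355224) had no read and fgf19 (54372353 to 54375912) had 2 reads, both in Geminin-positive replicate 3. Reads on this stretch were therefore nearly all in the fgf3 row. As a description of its pattern, the gene nearest to fgf3 over the 6 libraries was atad2, with a root mean square difference of 0.254 in centred log2(CPM + 1) among 7542 genes within 4-fold of its mean. It was followed by tmprss13b (0.264), c1qtnf4 (0.324), si:ch73-54f23.2 (0.334) and zgc:152948 (0.336). All 5 had their highest read count in Geminin-negative replicate 3, as fgf3 did, which follows from choosing them by closeness to fgf3 in these libraries.

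The Fgf8, Fgf17, Fgf18 and Fgf24 branch held 3 members, of which fgf8a alone had more than 1 read. In zebrafish, fgf8a (the acerebellar gene) is known for organising the boundary of midbrain and hindbrain. Its row lies on chromosome 13 from 28364969 to 28371535 (ENSDARG00000003399, plus strand). It had no read in any Geminin-negative library and 0, 38 and 18 reads in Geminin-positive replicates 1, 2 and 3 (0, 2.74 and 1.13 CPM). All of its reads were in Geminin-positive libraries, but replicate 1 of that group was at 0 like the Geminin-negative libraries, so the groups overlapped. Over the pooled Geminin-positive libraries its level was 1.23 CPM, 32.0-fold the 0.0384 CPM that 3 reads over the Geminin-negative group would give. This bound covers counting error of the 0 reads only, not the spread between libraries. The bound was 14.8-fold without Geminin-positive replicate 2, which held 67.9% of the reads, 17.1-fold without Geminin-negative replicate 2 and 48.9-fold without Geminin-positive replicate 1. The gene did not pass the low-count filter and was not part of the main test. Fitted without that filter, it had an unadjusted p of 0.083 and an adjusted p of 0.622 (edgeR). Of the 2238 bases of the fgf8a row, 1133 are shared with si:ch211-194i8.3 on the opposite strand, which had 0 reads in all 6 libraries.

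In the same branch fgf18a, whose mouse counterpart acts in the growth of cartilage and bone, had no read (ENSDARG00000088048, chromosome 14, 2569122 to 2615520). Its copy fgf18b had 50, 9 and 1 reads in Geminin-negative replicates 1, 2 and 3 and 5, 0 and 0 reads in Geminin-positive replicates 1, 2 and 3. For this pair the reads lay in the copy that is not on the list. The gene fgf24, known in zebrafish for starting the pectoral fin bud, had 1 read, in Geminin-negative replicate 1 (ENSDARG00000037677, chromosome 14, 5200149 to 5239663).

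The copy of fgf8a, fgf8b on chromosome 1, had no read. The gene fgf17, of the same branch, was the 1 Fgf ligand gene with a read in every library (ENSDARG00000102778, chromosome 8, 52745814 to 52758875). It had 16, 44 and 19 reads in Geminin-negative replicates 1, 2 and 3 (0.818, 1.21 and 0.855 CPM). Geminin-positive replicates 1, 2 and 3 had 15, 4 and 11 reads (0.953, 0.288 and 0.690 CPM). Its level was low, and the groups overlapped because Geminin-positive replicate 1 lay within the Geminin-negative range. The log2 fold change was -0.57 (SE 1.78, 95% interval -4.62 to 3.47, edgeR adjusted p = 0.9999).

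The branch of Fgf3, Fgf7, Fgf10 and Fgf22 also holds fgf7 and fgf10a. The gene fgf7, whose mammalian counterpart is the keratinocyte growth factor made by connective tissue cells, had 35 reads in Geminin-negative replicate 2, or 0.961 CPM, and none in the other 5 libraries (ENSDARG00000059387, chromosome 18, 5407434 to 5424064). Its level in the pooled Geminin-negative libraries was 6.80-fold the floor of 3 reads in the Geminin-positive group, and it rested on that 1 library. This bound, too, covers counting error of the 0 reads only. The bound was 4.45-fold and 4.42-fold without Geminin-positive replicates 1 and 3. The edgeR fit without a low-count filter gave fgf7 an unadjusted p of 0.161 and an adjusted p of 0.622. Of its 956 bases, 107 are shared with a row that has no symbol and 0 reads.

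The gene fgf10a, which drives limb and fin bud outgrowth from the mesenchyme, had no read (ENSDARG00000030932, chromosome 21, 19612178 to 19645986). Its copy fgf10b, on chromosome 5 from 8264431 to 8313110, had 0, 40 and 40 reads in Geminin-negative and 39, 0 and 0 reads in Geminin-positive replicates 1, 2 and 3. It was the 1 ligand of all 30 that was detected in the Geminin-negative libraries by the rule above. Its log2 fold change was -0.22 (SE 2.70, edgeR adjusted p = 0.9999), and without Geminin-negative replicate 3 it was 0.57. Without Geminin-positive replicates 2 and 3 in turn it was 0.36 in either case, and without Geminin-positive replicate 1 it was -7.39.

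The Fgf1 and Fgf2 branch holds ligands that in mammals leave the cell without a classical secretion signal. The gene fgf1a had 39, 0 and 0 reads in Geminin-negative replicates 1, 2 and 3 (1.99 CPM in replicate 1) and 55, 0 and 0 reads in Geminin-positive replicates 1, 2 and 3 (3.49 CPM in replicate 1; ENSDARG00000017542, chromosome 14, 23434704 to 23440429). Reads were thus in replicate 1 of each group and nowhere else. Without a low-count filter its adjusted p was 0.990 by edgeR. Its copy fgf1b had 48 of its 52 reads in Geminin-positive replicate 3. The gene fgf2 had 1 read, in the same library (ENSDARG00000104348, chromosome 14, 544258 to 549849).

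The ligands with reads varied from library to library. The members with a read were 3, 2 and 2 in Geminin-negative replicates 1, 2 and 3 and 3, 1 and 4 in Geminin-positive replicates 1, 2 and 3. Summed over all 30 ligand genes, the level was 8.54, 4.61 and 11.3 CPM in Geminin-negative replicates 1, 2 and 3. It was 13.0, 3.03 and 15.3 CPM in their Geminin-positive counterparts by number, so the groups overlapped. The leading member by reads was fgf20a in Geminin-negative replicate 1, fgf7 in replicate 2 and fgf3 in replicate 3. It was fgf1a, fgf8a and fgf20a in Geminin-positive replicates 1, 2 and 3. In Geminin-positive replicate 2, fgf8a held 90.5% of the ligand reads, with the other 4 reads in fgf17.

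Such scatter was common among genes with as few reads. Of the 5280 genes with 35 to 271 reads in total, the range of the 5 members with more than 1 read, 41.6% had reads in at most 2 libraries and 5.21% in all 6. In the median gene of this range the richest library held 62.7% of the reads. For fgf20a, fgf1a, fgf3 and fgf8a it held 53.1%, 58.5%, 67.5% and 67.9%, and for fgf7 it held 100%. With 40.4% fgf17 lay below the median, as did fgf20a and fgf1a, and fgf10b was lower still with 33.6%. The richest library held 76.9% of the reads of fgf18b, 92.3% of fgf1b and 97.9% of fgf20b. Since no molecular identifiers are described in the sources used here, the 35 reads of fgf7 in 1 library, for example, need not come from as many transcripts.

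**Figure D2:**
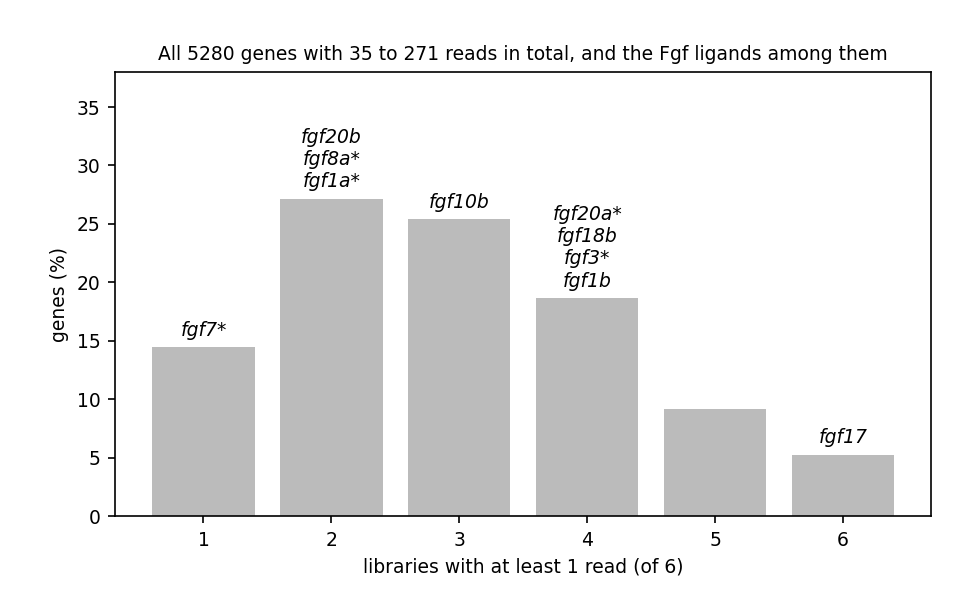
Bars give the percentage of all 5280 genes with 35 to 271 reads in total (y axis) that had at least 1 read in 1 to 6 libraries (x axis), and the names above them place the Fgf ligands of the same range, listed members with an asterisk. The 5 members fall at 1, 2 and 4 libraries, and fgf17 at 6.

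Levels of different genes were compared as TPM, in which reads are divided by gene length before they are scaled to the same total in each library. The order of the members by mean TPM over the 6 libraries was fgf20a (3.73 ± 4.64), fgf3 (2.57 ± 3.97), fgf1a (1.15 ± 1.82), fgf8a (0.523 ± 0.884) and fgf7 (0.339 ± 0.830; SD, n = 6). Each of these 5 had at least 1 library at 0, the SD exceeded the mean, and no neighbours in the order differed beyond their spread. Among the other ligands fgf10b had 1.17 ± 1.41 and fgf17 0.862 ± 0.345 TPM. The highest ligand level in any library was 11.7 TPM, of fgf20a in Geminin-positive replicate 3.

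The summed level of the receptors exceeded that of the ligands, and receptor reads were found throughout. All 5 signalling receptor genes, fgfr1a, fgfr1b, fgfr2, fgfr3 and fgfr4, had reads in all 6 libraries. They had 1620 to 7597 reads in total, against at most 271 for an Fgf ligand, so evenness was not compared at like read numbers. Mean levels over the 6 libraries were 28.4 TPM for fgfr3, 23.1 for fgfr4, 11.4 for fgfr1b, 5.25 for fgfr2 and 3.56 for fgfr1a. The sum of the 5 receptors was 172, 60.5 and 47.4 TPM in Geminin-negative replicates 1, 2 and 3 and 75.8, 50.1 and 24.9 TPM in Geminin-positive replicates 1, 2 and 3. The sum of the 30 ligands was 12.6, 5.41 and 14.3 TPM and 17.9, 2.38 and 21.2 TPM in the same order. The receptor sum exceeded the ligand sum in every library, by 1.18-fold to 21.1-fold, with the lowest ratio in Geminin-positive replicate 3. Gene by gene the order was mixed: fgf20a in that library, at 11.7 TPM, was above each of the 5 receptors, of which the highest was fgfr4 at 8.77 TPM. In Geminin-negative replicate 3, fgf3 at 10.1 TPM was above fgfr1a, fgfr1b and fgfr2.

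**Figure D3:**
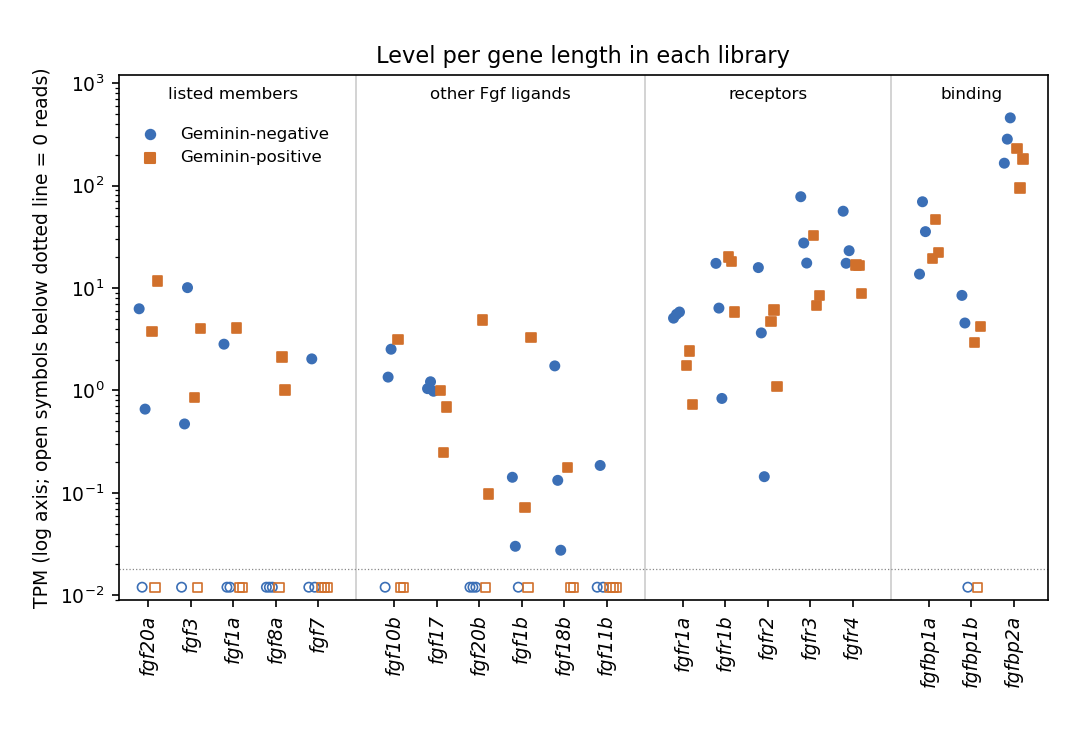
TPM on a log axis in each Geminin-negative (circles) and Geminin-positive library (squares) for Fgf ligand genes with more than 10 reads, the 5 signalling receptors and 3 Fgf-binding proteins; open symbols below the dotted line are libraries with 0 reads. The 5 listed members shown each have open symbols, whereas every receptor has a read in all 6 libraries. The receptors had 1620 to 7597 reads in total and these members 35 to 271, so evenness was not compared at like read numbers.

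Among the genes for secreted Fgf-binding proteins, levels differed widely. The gene fgfbp2a, the most abundant of them, had 165, 284 and 458 TPM in Geminin-negative and 231, 94.5 and 182 TPM in Geminin-positive replicates 1, 2 and 3. It was far above the ligands in each library, and the groups overlapped (edgeR log2 fold change of -0.66 with an SE of 0.43 and an adjusted p of 0.872). Its relative fgfbp1a had a mean of 34.5 TPM over the 6 libraries and a log2 fold change of -0.22 (edgeR adjusted p = 0.9999). The genes fgfbp1b and fgfbp2b had 3.36 and 0.113 TPM, with reads in 4 libraries and in 1, and fgfbp3 had no read. The co-receptor genes klb and kl, which endocrine Fgfs need in mammals, had 0 reads in all 6 libraries, and fgf23, which has such a receptor partner in mammals, had none either.

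In the comparison of the gates, 0 members passed the test. Only fgf3 and fgf20a passed the low-count filter, and of the 12855 genes that did 0.607% were called. With Geminin-positive over Geminin-negative, 0.124% of the genes were called higher and 0.482% lower. The members also had 0 calls and 0 unadjusted p-values under 0.05 with DESeq2 and with limma-voom on the same 2 genes. The edgeR fit without a low-count filter took in the 7 members with a read and gave 0 of each, with a lowest unadjusted p of 0.083. In that fit 2.57% of all 21637 genes were called, against 4.87% with DESeq2 and 0.871% with limma-voom. Of all genes tested in edgeR, 9.40% had an unadjusted p under 0.05. The 95% intervals of fgf3 and fgf20a reach beyond 4 log2 units on either side of 0, so differences of that size in either direction lie within them.

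**Figure D4:**
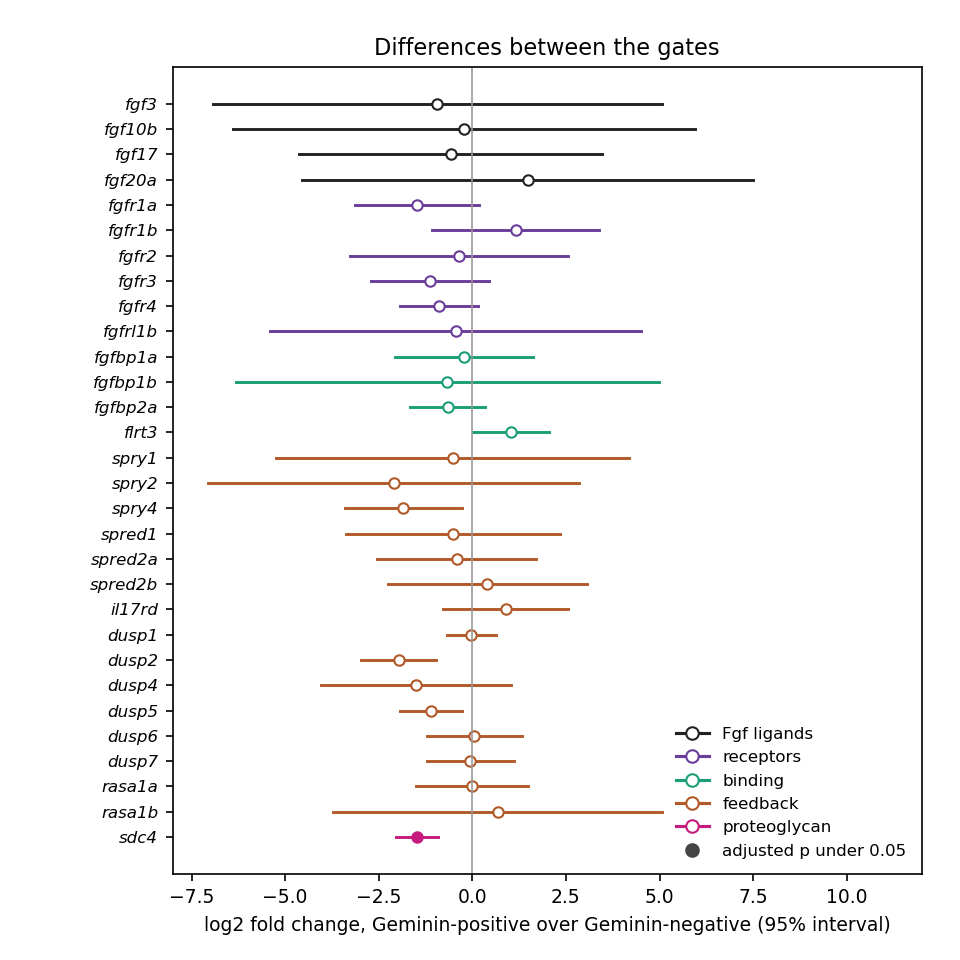
Log2 fold changes, Geminin-positive over Geminin-negative (points; lines are 95% intervals from edgeR), for the 4 Fgf ligands that passed the low-count filter, for tested receptors, binding proteins and feedback inhibitors, and for the proteoglycan gene sdc4. The ligand intervals all span 0 and are wide, from -6.92 to 5.05 for fgf3, and sdc4 is the 1 filled point (adjusted p under 0.05).

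The rest of the pathway was read from 8 lists with 152 genes, of which 141 were matched and 102 tested. With p-values adjusted over all genes tested, 0 of the 102 rose and 1 fell, or 0.98%. Of all 12855 genes tested 0.124% rose and 0.482% fell, so 1 call among 102 is near that share. The gene that fell was sdc4, a syndecan that carries heparan sulfate at the cell surface. It had 1109, 1168 and 939 CPM in Geminin-negative and 294, 453 and 414 CPM in Geminin-positive replicates 1, 2 and 3, with no overlap. The log2 fold change was -1.47 (SE 0.25, edgeR adjusted p = 0.0471), and it stayed between -1.30 and -1.60 in the fits that left out 1 library, each of which lost the call (adjusted p from 0.0788 to 0.151). The size factors of DESeq2 gave an adjusted p of 0.0509 in edgeR. The call held with DESeq2 (adjusted p = 5.50e-07), limma-voom (0.00567) and the other edgeR settings run. The shares of leukocyte, osteoclast, keratinocyte and endothelium markers were also lower in the Geminin-positive libraries without overlap. The part of these cells in the sdc4 difference, and in the negative values of the lists described below, was not tested.

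Among receptors 5 of the 6 tested had a negative and 1 a positive log2 fold change, and 0 passed. The receptor with the smallest p was fgfr1a, with 14.8, 20.4 and 18.8 CPM against 6.23, 10.4 and 2.70 CPM. These groups did not overlap, but the difference did not pass the test (log2 fold change -1.48, SE 0.73, edgeR adjusted p = 0.631). It was followed by fgfr4 (log2 fold change -0.89, edgeR adjusted p = 0.684) and fgfr3 (-1.13, adjusted p = 0.823). The list median was -0.67, beside -0.01 over all genes tested.

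The feedback inhibitors of the Erk cascade had 4 positive and 11 negative values among 15 tested, a median of -0.42 and 0 calls. Over all genes tested 6375 values were positive and 6480 negative. The smallest p in this list was that of dusp2, a phosphatase of MAP kinases, with a log2 fold change of -1.97 and an adjusted p of 0.112 by edgeR. It was called lower with DESeq2 (adjusted p = 0.00257), and by edgeR without a low-count filter (0.00104) and with total counts alone (0.0407). The Erk phosphatase gene dusp5 had -1.10 (edgeR adjusted p = 0.312, but 0.0462 without a filter and 0.0460 with total counts alone) and spry4, a Sprouty inhibitor, -1.84 (edgeR adjusted p = 0.375). Of the 14 tested transcription factor genes that respond to Erk, 3 were positive, 11 were negative and 0 passed, with a median of -0.52. The genes junbb, ier2b and ier2a had log2 fold changes of -1.03, -0.83 and -0.64 (edgeR adjusted p = 0.150, 0.299 and 0.370). Of these, junbb was called lower in 5 alternatives, DESeq2 (adjusted p = 0.00224) and limma-voom (0.0443) among them.

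Between receptor and Erk, 0 of 14 adaptor genes and 0 of 13 Ras, Raf, Mek and Erk genes passed. The Raf kinase gene araf had 29.1, 15.6 and 14.9 CPM in Geminin-negative and 54.1, 43.9 and 81.2 CPM in Geminin-positive replicates 1, 2 and 3. These groups did not overlap (edgeR log2 fold change of 1.59 with an SE of 0.43 and an adjusted p of 0.189). The Ras-related gene rras had a log2 fold change of -0.75 (edgeR adjusted p = 0.732). The adaptor genes with the smallest p, shc1, ptpn11a and sos2, had -0.94, 0.45 and 1.23 (edgeR adjusted p = 0.9999 each). In the list of Fgf-binding proteins flrt3, a membrane protein that binds Fgf receptors, had 1.02 and no overlap between groups (edgeR adjusted p = 0.518).

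Some other ligands that can activate Erk had reads in every library. Of 26 matched genes, 13 were detected in Geminin-negative and 10 in Geminin-positive libraries, and 8 had reads in all 6. These 8 had 449 to 6568 reads in total, against at most 271 for an Fgf ligand, so evenness was not compared at like read numbers. The summed level of all 26 matched genes ran from 60.3 to 375 TPM, above the summed Fgf ligands in each library. Of 13 tested, 2 were positive, 11 were negative and 0 passed, with a median of -0.98. The gene kitlga, which encodes the ligand of the receptor Kit, had 4.35, 12.4 and 5.67 CPM in the Geminin-negative libraries and 0 reads in the others. Its level in the pooled Geminin-negative libraries was 128-fold the floor of 3 reads in the Geminin-positive group. This bound covers counting error of the 0 reads only, not the spread between libraries. The 95% interval of its log2 fold change by edgeR, -16.4 to -4.13, reached smaller differences than this bound. The gene kitlga did not pass the main test (edgeR adjusted p = 0.194). It was called lower with DESeq2 (adjusted p = 9.04e-05) and by edgeR without a low-count filter (adjusted p = 0.0345). The fold bound was 76.7 without Geminin-negative replicate 2, and 84.0 and 83.4 without Geminin-positive replicates 1 and 3. The vascular growth factor genes vegfaa and vegfab had edgeR adjusted p-values of 0.384 and 0.469, and DESeq2 called vegfab lower (adjusted p = 0.0366). Scaling by total counts alone shifted the median gene by -0.46 log2 units. Under it 11 of the 14 adaptors and 10 of the 13 cascade genes were negative, against 5 and 7 with TMM, while the directions of the other medians named here held.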

How the data were processed

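Read counts per gene of 6 libraries were used as deposited by the authors. The submitters' processing notes list featureCounts 1.6.1, TopHat2 2.1.1 and Trim Galore 0.4.1 as tools and danRer10 as build. For strandedness and for reads shared by overlapping genes, the settings are not given in the sources used. Gene IDs were joined to RefSeq symbols by name and chromosome (16267 IDs) or by base name, chromosome and neighbouring genes (3714 IDs). Another 6809 IDs kept the symbol listed for them without a RefSeq match. In all, 26790 of 34289 IDs had a symbol.

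Counts were filtered with filterByExpr, scaled by TMM and tested with the quasi-likelihood test of edgeR 4.0.16 in R 4.3.3, Geminin-positive against Geminin-negative (n = 3 each). P-values were adjusted over all 12855 genes by the Benjamini-Hochberg method with a threshold of 0.05. TPM used the gene length deposited with the counts. One read was worth 0.0275 to 0.0721 CPM. DESeq2 1.42.0, voom of limma 3.58.1, other scalings and filters, a replicate block and leaving out each library were alternatives. The script was tested on simulated counts. Pathway genes were named by the smallest p in each list. The result of 1 gene that this rule names is not reported here. The members and lists were chosen with earlier results of these data known. The labels name each sample as a pool of fish but do not state separate experiments, so p-values measure the spread between these samples, which may be partly technical. No 2 libraries agreed within sampling noise.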

Additional observations from a re-analysis of the deposited data

How the results depend on the processing

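No Fgf member was called under any of the 13 alternatives. The log2 fold change of fgf3 reversed to 2.73 without Geminin-negative replicate 3 and to 0.060 with limma-voom, over a range of -2.90 to 2.73, and had no value under the stricter filter. That of fgf20a reversed to -0.023 without Geminin-positive replicate 3 (range -0.023 to 4.15). That of fgf10b reversed to 0.57, 0.36 and 0.36 without Geminin-negative replicate 3 and Geminin-positive replicates 2 and 3 (range -7.39 to 0.57), and fgf17 ranged from -0.96 to -0.22. The cause was not tested beyond the libraries named. Of all genes, 16 were higher in the main test, against 156 without a filter, 194 with DESeq2, 42 with limma-voom, 47 with the replicate block and 1 to 25 with a library left out. The 62 lower genes became 173 with total counts alone, 401 without a filter, 432 with DESeq2 and 21 to 71 with a library left out. Pathway genes called lower numbered 0 with DESeq2-type size factors, 4 with total counts alone, 6 without a filter, 5 with DESeq2, 2 with limma-voom, 2 with the replicate block and 0 with any library left out. Of all genes tested, 2.57% were called in either direction without a filter, 4.87% with DESeq2 and 0.871% with limma-voom. DESeq2 also called 1 higher, araf, and junbb was called lower in 5 alternatives, dusp2 in 3, kitlga and dusp5 in 2 each and vegfab and csf1a in 1 each. All reads of csf1a were in Geminin-negative replicate 1, so its call rested on 1 library. Detected members were 1 in the Geminin-negative libraries at 10 reads, and in the Geminin-positive libraries 0 at 1 CPM in all 3, 1 with total counts alone and 3 each at 0.5 CPM and at 10 reads. Same-numbered libraries correlated at 0.18, 0.058 and 0.040 in their deviations, and differently numbered ones at -0.12 to 0.052. The labels state no pairing, so the numbers were not taken as pairs in the main test. Whether same-numbered libraries share an origin was not tested. In the replicate block the log2 fold change was -0.71 for fgf3, 1.51 for fgf20a and -4.81 for fgf10b. The fold bounds with a library left out were added after seeing the data. The few libraries with reads of each member limit every comparison.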
